A study of Homo sapiens with 33 samples.

Results

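The 10 genes described here encode secreted inflammatory cytokines and their relatives: the colony-stimulating factors CSF3, CSF2 and CSF1, the IL6 family members IL6 and LIF, the IL1 family members IL1A and IL1B, and the chemokines CXCL1, CXCL2 and CXCL3. They were taken by symbol from the 56470 genes of the count table, and all 10 were found. CSF3 was chosen by its measured fall with cetuximab in SCC1, the largest seen there, so every value of the SCC1 treatment contrast below is a description without a test. RNA was sequenced from 3 established head and neck squamous carcinoma cell lines, SCC1, SCC6 and SCC25, treated with 100 nM cetuximab (CTX in the labels), an antibody that blocks the epidermal growth factor receptor EGFR, or with PBS as the untreated control. The growth medium held serum in all groups, with hydrocortisone added for SCC25 and SCC1, and it was renewed with drug or PBS daily. There were 33 libraries: PBS on days 0 to 5 (6 libraries in each line) and cetuximab on days 1 to 5 (5 in each line), except that the labels of SCC6 gave day 2 for 2 cetuximab libraries, called 2a and 2b here, and day 1 for none.

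Cytokines of this kind carry signals from epithelial and tumour cells to the bone marrow, blood vessels and leukocytes. G-CSF (CSF3), GM-CSF (CSF2) and M-CSF (CSF1) drive the growth and survival of granulocytes and macrophages. IL-1α and IL-1β act on a shared receptor and switch on NF-κB, IL-6 and LIF signal through the shared subunit gp130 to STAT3, and CXCL1, CXCL2 and CXCL3 attract neutrophils through the receptor CXCR2. In keratinocytes and squamous carcinomas, transcription of many of these genes is known to depend on NF-κB, C/EBP and the AP-1 factors that lie downstream of EGFR and ERK.

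The stretches of 250 bases that precede the annotated starts are shown for 6 of the genes, since the 3 chemokines have closely similar promoters yet differed in level between the lines. RefSeq (GRCh38.p14) gave an entry for 7 of the 10 members, with 2 starts for IL1A; the other members were CSF3, CSF1 and LIF. The sequences are written 5′ to 3′ on the strand of the gene, and capitals mark matches, on either strand, to 3 motifs: GGNNTTTCC (9 positions of a common NF-κB site), TGANTCA (an AP-1 site) and TTGCNNAA (a C/EBP site).
CXCL1 (chr4:73869143-73869392, plus strand): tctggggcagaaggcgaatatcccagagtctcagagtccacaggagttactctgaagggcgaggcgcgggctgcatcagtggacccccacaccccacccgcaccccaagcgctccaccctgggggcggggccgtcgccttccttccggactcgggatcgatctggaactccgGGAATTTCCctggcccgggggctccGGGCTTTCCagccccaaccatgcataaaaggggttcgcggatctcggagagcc
CXCL2 (chr4:74099196-74099445, minus strand): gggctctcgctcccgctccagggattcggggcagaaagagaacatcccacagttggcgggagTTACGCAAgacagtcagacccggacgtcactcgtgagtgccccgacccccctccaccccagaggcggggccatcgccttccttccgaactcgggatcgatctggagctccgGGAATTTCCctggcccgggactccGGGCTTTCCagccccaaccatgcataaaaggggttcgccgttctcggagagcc
CXCL3 (chr4:74038690-74038939, minus strand): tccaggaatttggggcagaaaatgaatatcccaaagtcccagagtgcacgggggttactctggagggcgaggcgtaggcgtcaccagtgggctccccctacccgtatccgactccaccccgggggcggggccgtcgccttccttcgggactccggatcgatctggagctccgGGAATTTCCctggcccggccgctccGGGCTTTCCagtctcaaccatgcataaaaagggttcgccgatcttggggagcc
IL6 (chr7:22726950-22727199, plus strand): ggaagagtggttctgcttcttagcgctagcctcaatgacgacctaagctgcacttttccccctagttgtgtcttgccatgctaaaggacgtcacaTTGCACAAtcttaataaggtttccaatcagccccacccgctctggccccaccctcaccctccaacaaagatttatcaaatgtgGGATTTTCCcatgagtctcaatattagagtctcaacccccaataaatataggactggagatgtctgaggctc
IL1A, start 2 (chr2:112784401-112784650, minus strand): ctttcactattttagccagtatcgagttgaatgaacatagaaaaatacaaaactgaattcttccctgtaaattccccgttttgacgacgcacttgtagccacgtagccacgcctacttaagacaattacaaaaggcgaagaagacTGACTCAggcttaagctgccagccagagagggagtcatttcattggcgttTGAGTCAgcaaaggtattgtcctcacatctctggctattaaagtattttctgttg
IL1B (chr2:112836780-112837029, minus strand): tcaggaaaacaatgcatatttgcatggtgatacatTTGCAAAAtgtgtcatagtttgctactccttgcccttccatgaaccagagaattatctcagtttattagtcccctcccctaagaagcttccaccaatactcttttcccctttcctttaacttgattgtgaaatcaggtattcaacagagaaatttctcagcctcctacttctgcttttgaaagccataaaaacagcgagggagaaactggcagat

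The NF-κB letters lay at almost one position in the 3 chemokine promoters, from -78 to -70 in CXCL1 and CXCL3 and from -77 to -69 in CXCL2, counted from the start, with a second match from -53 to -45 in each. In IL6 they lay from -72 to -64. Of the 35116 promoters of this length, 5.48% held the NF-κB letters, 6.57% the AP-1 letters and 9.05% the C/EBP letters. AP-1 letters were found before both starts of IL1A, and C/EBP letters before CXCL2, IL6 and IL1B. The IL1A match from -12 to -6 before start 1 is the same site as that from -105 to -99 before start 2. The CSF2 stretch held none of the 3, and no match overlapped a match to another motif. The NF-κB site was searched in 3 forms of its letters, and the form shown was chosen after the matches of all were seen. A form of 10 positions, held by 5.07% of promoters, matched the same 4 genes at the first of these places but at no second place in the chemokines. The looser GGGNNTTNC, held by 14.2%, also matched CSF2 and gave 10 matches in 5 genes where the form shown gave 7 in 4, so the empty CSF2 stretch and the second chemokine match depend on the form. Over aligned positions, the promoter of CXCL1 was 81.4% identical to that of CXCL3 and 70.4% identical to that of CXCL2, and those of CXCL2 and CXCL3 were 73.3% identical. A match is a description of letters and not a measured binding site.

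**Figure D1:**
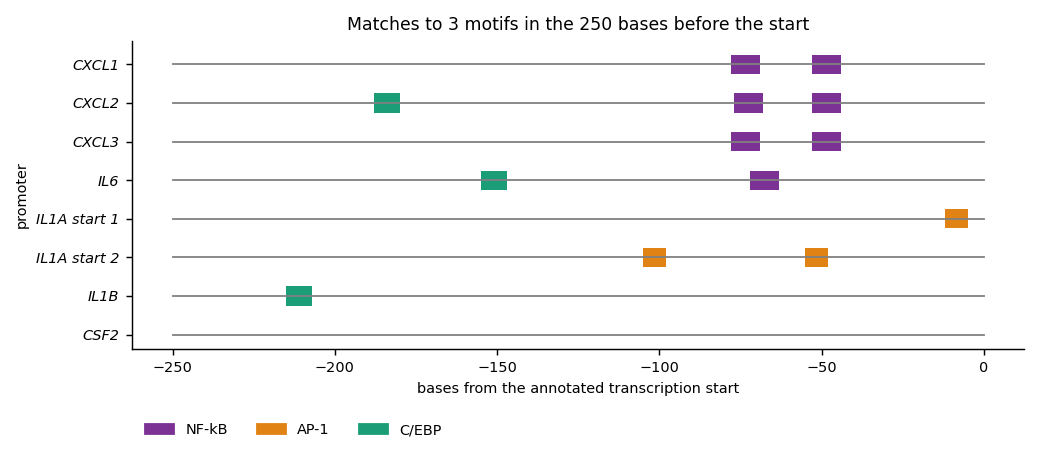
Matches to the NF-κB, AP-1 and C/EBP letters in the 250 bases before each annotated start, in bases from the start. CXCL1, CXCL2 and CXCL3 carry a pair of NF-κB boxes in nearly one place, IL6 carries 1, and no box lies on the CSF2 line; a looser form of the NF-κB letters also matched CSF2.

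On GRCh37, the build that the submitters' processing notes name, with gene models of GENCODE, the chemokine genes are neighbours on chromosome 4 (CXCL1 at 74735110-74737025, CXCL3 at 74902306-74904524, CXCL2 at 74962757-74964913). The IL1 genes are neighbours on chromosome 2 (IL1A at 113531502-113542070, IL1B at 113587328-113594393). CSF3 is on chromosome 17 (38171614-38174066), CSF2 on chromosome 5 (131409482-131411863), CSF1 on chromosome 1 (110452864-110473614), IL6 on chromosome 7 (22765503-22771621) and LIF on chromosome 22 (30636442-30642748). Counts refer to whole genes. Of the runs of 31 bases in the main transcript, 14.4% in CXCL1, 21.7% in CXCL2 and 9.57% in CXCL3 also occur in one of the other two chemokine transcripts, so a part of their reads can be assigned to the wrong member.

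Library totals ran from 28508758 to 80727478 estimated counts, and the 2 deepest were the SCC6 cetuximab libraries of days 4 and 5, which were alone on their flow cell. Levels are given as CPM, a library's counts scaled to a fixed total, after TMM scaling over the 33 libraries. One library stood for each day, so 5 days of one treatment take the place of replicates, and the spread between them includes any change with time. All 8 squamous epithelial markers had means above 1 CPM in every group, though KRT5, KRT14 and DSG3 had means of at most 12.3 CPM in SCC6. PTPRC, the pan-leukocyte marker, had a mean of at most 0.216 CPM. Dilution of the cultures by other cells and a change of RNA per cell cannot be told apart in bulk RNA. EGR1 and DUSP6, targets of ERK, checked the treatment: with cetuximab EGR1 went from 53.8 ± 17.8 to 4.27 ± 2.12 CPM (SD, n = 5) in SCC1, and it fell by 4.35 in SCC6 (SE 0.238) and by 2.44 in SCC25 (SE 0.184) on the log2 scale.

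Without drug, the lines differed in which cytokines they transcribed. Per kilobase of the main transcript, IL1B (355 ± 126 CPM per kb, SD, n = 5) and IL1A (303 ± 68.2) led in SCC1 and did not differ beyond their spread, and CXCL1 (86.2 ± 48.8), CSF3 (37.8 ± 31.8), LIF (26.0 ± 11.2), IL6 (23.4 ± 12.7) and CXCL2 (19.9 ± 9.89) followed, each pair of neighbours overlapping. CSF1 (7.15 ± 0.811), CXCL3 (2.86 ± 1.15) and CSF2 (1.40 ± 0.483) came last. SCC6 had LIF (89.4 ± 15.6), IL1B (89.4 ± 15.2) and IL1A (79.9 ± 18) at the top, then CSF2 (18.3 ± 4.97), CXCL3 (12.6 ± 0.924) and CXCL2 (5.86 ± 0.506), with CXCL1 at the bottom. In SCC25 IL1A (81.8 ± 13.1) and IL1B (36.7 ± 7.85) led, followed by CSF2 (13.2 ± 3.51) and CSF1 (9.46 ± 0.781), and CSF3 was last. The IL1 pair was thus among the 3 highest members in every line, and the members below it changed places.

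LIF, a gp130 cytokine that keeps stem cells undifferentiated, had a wide gap between SCC6 and SCC25, second among the members to that of CXCL1, which is described with its counts below. Its 6 PBS libraries ran from 304 to 453 CPM in SCC6 and from 1.16 to 4.51 CPM in SCC25, a log2 difference of 6.85 (SE 0.408, adjusted p = 7.43e-12, edgeR quasi-likelihood test, as for each adjusted p here). CXCL3 was also higher in SCC6 than in SCC25, by 3.82 on the log2 scale (SE 0.302, adjusted p = 6.12e-10), as were CXCL2 by 2.26, IL1B by 1.39 and CSF2 by 0.72. The call of CSF2 was lost on days 1 to 5 alone (0.48, adjusted p = 0.0672), and that of CSF2 (adjusted p = 0.0502) and of CSF3 (adjusted p = 0.051) without PBS of day 0 in SCC6. IL6 was lower in SCC6 than in SCC25 by a log2 difference of -2.83 (SE 0.363, adjusted p = 7.21e-07) and CSF1 by -2.42. IL1A did not pass the test between these lines, with a difference of 0.10 and a 95% interval from -0.38 to 0.58. Of the 10 members 9 were called between SCC6 and SCC25, where 72.1% of all genes tested were called. All PBS libraries of SCC25 were on one flow cell that held no other line, so line and flow cell cannot be told apart in this contrast. Hydrocortisone in the medium, named for SCC25 but not for SCC6, cannot be told apart from the line either.

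The PBS libraries of SCC1 entered the contrast behind the choice of CSF3, and their levels are set beside the other lines with that in view. CSF2 was lower in SCC1 (0.409 to 1.68 CPM) than in SCC6 (9.09 to 25.3 CPM), with a log2 difference of 4.04 (SE 0.301, adjusted p = 2.78e-10). IL6 was higher in SCC1 (12.1 to 45.7 CPM) than in SCC6 (0.309 to 0.697 CPM), with a difference of -5.37 for SCC6 against SCC1 (SE 0.373, adjusted p = 9.04e-11). CSF3 had 2.84 to 115 CPM in SCC1, 0.147 to 1.12 CPM in SCC6 and at most 0.0599 CPM in SCC25. Its ranges in the 3 lines did not overlap. On the one flow cell that held PBS libraries of both lines, the SCC1 library (day 5) and the 2 SCC6 libraries (days 0 and 1) had 0.947 against 25.3 and 19.5 CPM for CSF2, and 45.7 against 0.619 and 0.530 CPM for IL6. The shared flow cell does not separate line from hydrocortisone, which was named for SCC1 but not for SCC6. All 9 members other than CSF3 were called between SCC1 and SCC6, and 9 between SCC1 and SCC25, where 69.1% and 69% of all genes were called.

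CXCL1 was close to absent in SCC6. Its 11 libraries held 2 counts in total, both in PBS of day 2, which is a pooled level of 0.00452 CPM (95% exact Poisson interval 0.000548 to 0.0163, counting error only). In SCC1 with PBS it had 30.4 to 173 CPM, and in SCC25 3.603 to 5.06 CPM. With PBS on days 1 to 5, the nearest protein-coding genes of the table were also at or near 0 in SCC6: PF4V1 (16.1 kb away) and CXCL6 (32.8 kb) had no count, and PF4 (111.4 kb, on the other side) had a mean of 0.00772 CPM. This was not particular to SCC6. In SCC1, where CXCL1 had a mean of 101 CPM, PF4V1 and CXCL6 had no count and PF4 a mean of 0.00449 CPM. In SCC25 PF4V1 had no count, and CXCL6 and PF4 had means of 0.157 and 0.0928 CPM. Genes farther out were transcribed in SCC6, with means of 373 CPM for CXCL8 (128.9 kb), 13.5 CPM for CXCL3 (167.2 kb) and 6.53 CPM for CXCL2 (227.6 kb). PPBP, a platelet chemokine gene 117 kb from CXCL1, had 1.32 to 5.43 CPM with PBS in SCC6, no count with PBS in SCC1 and at most 0.0237 CPM with PBS in SCC25. These neighbours were chosen for their position after the values were seen. The promoters of CXCL1 and CXCL3 printed above share the NF-κB letters and most other bases, whereas the level of CXCL1 relative to CXCL3 with PBS went from 101 against 3.07 CPM in SCC1 to 0.0139 against 13.5 CPM in SCC6.

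**Figure D2:**
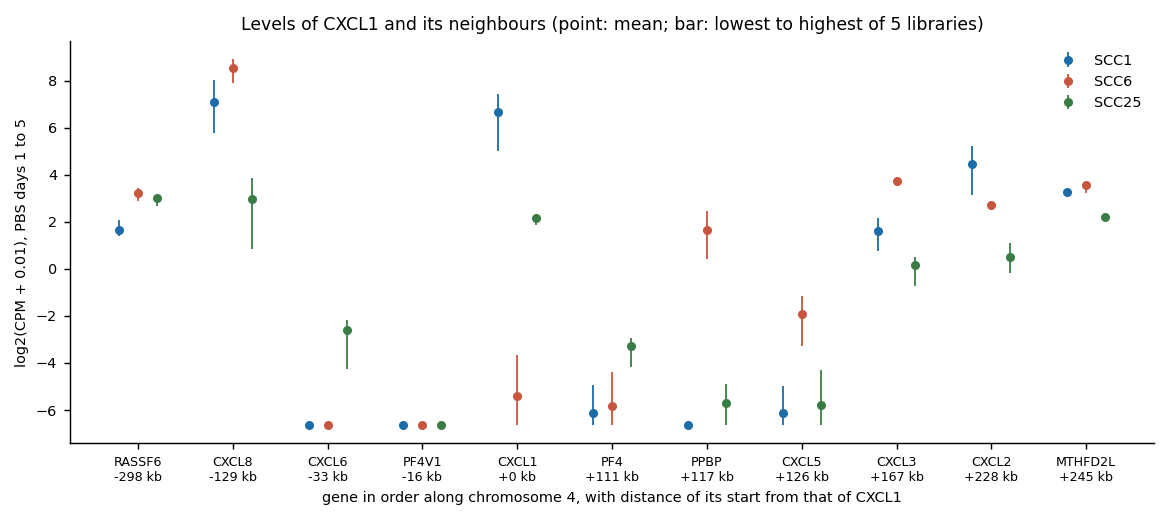
Level of the protein-coding genes within 300 kb of CXCL1, in their order on chromosome 4, as log2(CPM + 0.01) with PBS on days 1 to 5; points are means and bars run from the lowest to the highest of 5 libraries. In SCC6, CXCL1 sits near the floor together with CXCL6, PF4V1 and PF4, the genes nearest to it, while CXCL8, PPBP, CXCL3 and CXCL2 lie well above it. CXCL6, PF4V1 and PF4 are also near the floor in SCC1, where CXCL1 is high.

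Most of the members climbed in SCC1 during the days with PBS. CSF3 went from 2.84 CPM on day 0 to 7.99, 18.3, 44.4, 115 and 99.2 CPM on days 1 to 5, up to 40.3 times the level of day 0. Its slope, 1.11 on the log2 scale per day (SE 0.104), is given without a test. CXCL1 went from 30.4 to 32.4, 59.5, 101, 173 and 141 CPM, a slope of 0.55 per day (SE 0.0666, adjusted p = 0.0126). IL6 went from 12.1 to 13.0, 14.7, 21.7, 36.9 and 45.7 CPM, a slope of 0.42 per day (SE 0.0432, adjusted p = 0.00707). It was highest on day 5, whereas CSF3, CXCL1 and LIF were highest on day 4.

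LIF went from 33.2 to 43.2, 70.8, 112, 152 and 125 CPM (slope 0.45, SE 0.0606, adjusted p = 0.0158). IL1B went from 103 CPM on day 0 to 239, 469, 578, 696 and 691 CPM (slope 0.52, SE 0.0942, adjusted p = 0.0379). CXCL2, CXCL3 and CSF1 rose by 0.43, 0.39 and 0.15 per day (adjusted p = 0.0226, 0.0203 and 0.0483). IL1A had 179 CPM on day 0 and 379 to 715 CPM later, and its slope of 0.34 did not pass the test (adjusted p = 0.0923), as that of CSF2 did not (0.24, adjusted p = 0.314). Of the 9 members tested 7 rose, against 1.71% of all genes that rose.

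This count rests on 6 libraries and changed with them: 1 member was called without day 0, none without day 1, 3 without day 4, and 8 without day 5. Once the flow cell entered the fit 8 were called, but day 5 was alone on its flow cell, so that fit takes the slope from the other days. Without day 1, only 24 genes in the whole table were called, and every slope of a member called with all days kept its direction in the fits without 1 library. In SCC25 with PBS, IL6 (0.21 per day, adjusted p = 0.00567), LIF (0.34, adjusted p = 0.00436), IL1A (0.15, adjusted p = 0.0388) and IL1B (0.23, adjusted p = 0.00106) rose, 4 of 9 members tested, where 7.08% of all genes rose. The call of IL1A was lost with DESeq2 (adjusted p = 0.0802), on days 1 to 5 alone (0.07, adjusted p = 0.417) and without day 1 (adjusted p = 0.0807) or day 4 (adjusted p = 0.0833), and that of IL6 without day 5 (adjusted p = 0.0797). LIF there went from 1.16 CPM on day 0 to 1.91, 3.66, 3.37, 3.99 and 4.51 CPM. In SCC6, no member rose: CSF3 (-0.59 per day, adjusted p = 0.00738), CSF2 (-0.28, adjusted p = 0.00102) and LIF (-0.11, adjusted p = 0.0393) fell, 3 of 9, where 18.8% of all genes fell. PBS of days 0 and 1 was on another flow cell than days 2 to 5 in SCC6, and when the flow cell was a covariate CSF2 kept its slope (-0.28, adjusted p = 0.0201), CSF3 (-0.20, adjusted p = 0.745) and LIF (0.01, adjusted p = 0.927) were not called, and IL1A (-0.24, adjusted p = 0.0137) and IL1B (-0.17, adjusted p = 0.0214) were called as falling. The call of LIF was also lost in 5 of the 6 fits that left out 1 library (adjusted p up to 0.132). Whether the slopes differed between lines was not tested.

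**Figure D3:**
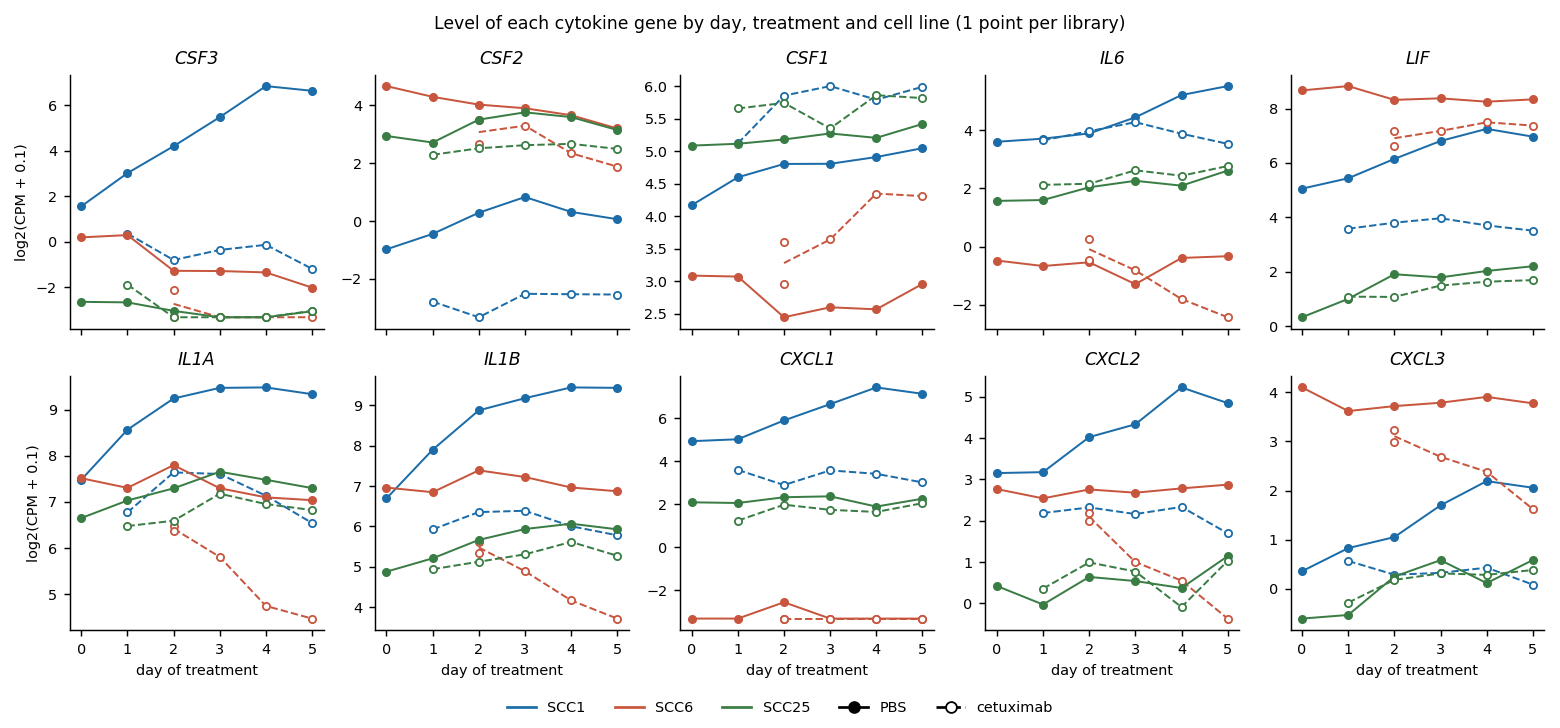
Level of each member as log2(CPM + 0.1) by day of treatment, 1 point per library, with filled points and solid lines for PBS and open points and dashed lines for cetuximab; lines join the daily means. In SCC1 the solid lines climb for most members and the dashed lines lie below them, except for IL6, where they lie close on days 1 to 3, and CSF1, where the dashed line lies above.

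In SCC1 with cetuximab, 8 members were lower in every library than in any PBS library of days 1 to 5, 1 was higher in every library and 1 overlapped. Among all 17984 genes of this fit, the ranges did not overlap for 16% with the lower level under cetuximab and for 15.3% with the higher one. CSF3 had 1.18, 0.472, 0.678, 0.810 and 0.337 CPM with cetuximab on days 1 to 5, against 7.99 to 115 CPM with PBS. The ratio of PBS to cetuximab on the same day went from 6.77 on day 1 to 294 on day 5. All 5 cetuximab libraries were also below the PBS library of day 0. Over the 5 days the log2 difference was -6.33 (SE 0.764).

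CSF2, the granulocyte-macrophage factor, was scarce in this line, with 0.636 to 1.68 CPM with PBS and 0 to 0.0753 CPM with cetuximab. The neutrophil chemokine CXCL1 had 11.99, 7.32, 11.8, 10.6 and 7.97 CPM with cetuximab, against 32.4 to 173 CPM with PBS, a log2 difference of -3.34 (SE 0.385). CXCL2 had 3.14 to 4.94 CPM against 8.93 to 37.3 CPM, and CXCL3 0.964 to 1.39 CPM against 1.68 to 4.48 CPM. Among these chemokines the separation was narrowest for CXCL3, whose log2 difference was -1.37 (SE 0.258). 

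IL1B, the secreted IL-1 that needs cleavage to act, had 60.8, 81.8, 83.7, 64.2 and 54.9 CPM with cetuximab against 239 to 696 CPM with PBS (log2 difference -2.94, SE 0.250). IL1A, which is active as the precursor, had 109, 199, 195, 141 and 93.2 CPM against 379 to 715 CPM (-2.04, SE 0.224). LIF had 11.3 to 15.6 CPM against 43.2 to 152 CPM (-2.93, SE 0.278). For these 3 genes all cetuximab libraries lay below all PBS libraries of days 1 to 5.

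IL6 was the member whose groups overlapped, with 12.5, 15.6, 19.3, 14.6 and 11.5 CPM with cetuximab and 13.0, 14.7, 21.7, 36.9 and 45.7 CPM with PBS. The treatments lay close on days 1 to 3 and apart on days 4 and 5. CSF1, the macrophage factor, went the other way, with 34.7, 57.8, 64.0, 55.4 and 63.6 CPM with cetuximab against 24.1 to 32.95 CPM with PBS (log2 difference 0.96, SE 0.145). The median difference over the 10 members was -2.63, beside 0.02 over all genes tested. Most PBS libraries of SCC1 were on another flow cell than its cetuximab libraries. On the shared flow cell, the lone PBS library, of day 5, lay above all 5 cetuximab libraries for 9 members and below them for CSF1. With the flow cell as a covariate the difference was -7.13 for CSF3 and -1.63 for IL6. This fit rests on the lone PBS library of day 5, so flow cell and day cannot be told apart in it.

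Fibroblast markers also differed between treatments, but not all in one direction. The summed level of the 7 markers was 21 to 32.9 CPM with PBS and 50 to 146 CPM with cetuximab in SCC1, 2.97 to 5.09 and 8.87 to 97.5 CPM in SCC6, and 136 to 177 and 224 to 338 CPM in SCC25, and none of the 7 was at 0 throughout a group. COL1A1, a collagen gene, was the leading one in SCC1 and SCC6. By group means, COL1A1, PDGFRB, DCN and LUM were higher with cetuximab in every line, and PDGFRA and THY1 were lower in every line. COL1A2 was higher in SCC1 and SCC25 and lower in SCC6 (0.289 CPM with PBS, 0.241 CPM with cetuximab). The 9 leukocyte markers summed to 2.68 to 7.09 and 5.95 to 15.4 CPM in SCC1, 0.485 to 1.12 and 1.23 to 4.22 CPM in SCC6, and 3.13 to 4.66 and 3.56 to 5.74 CPM in SCC25. MS4A1, a B cell marker, was at 0 throughout SCC1 with PBS, SCC6 with cetuximab and SCC25 with PBS; LYZ and AIF1 were at 0 in SCC1 with cetuximab, CD3E in both SCC25 groups and AIF1 in SCC25 with cetuximab. CSF1R, itself the receptor of the CSF1 product, led the leukocyte list in every group but SCC1 with PBS. The part of these markers in the cytokine changes was not tested.

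In SCC6, a line that did not enter the choice of CSF3, cetuximab lowered 6 of the 8 members tested and raised CSF1, against 14.6% of all genes that fell and 15.6% that rose. IL1B had 48.6, 40.8, 29.6, 17.9 and 13.1 CPM in the cetuximab libraries 2a, 2b and of days 3, 4 and 5. With PBS it had 115, 168, 149, 125 and 117 CPM on days 1 to 5. All cetuximab libraries lay below all PBS libraries, and the lowest were those of days 4 and 5. IL1B fell by 2.19 on the log2 scale (SE 0.315, adjusted p = 0.000434).

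IL1A had 88.4, 82.9, 56.0, 26.7 and 22.1 CPM with cetuximab against 131 to 222 CPM with PBS, and fell by 1.56 (SE 0.357, adjusted p = 0.0067). LIF had 145, 99.7, 145, 180 and 166 CPM against 304 to 453 CPM, and fell by 1.26 (SE 0.160, adjusted p = 0.000199). LIF differed from the IL1 genes in its course: its lowest cetuximab library was 2b, and that of day 4 was the highest. CXCL2 had 3.88, 4.48, 1.90, 1.36 and 0.674 CPM against 5.72 to 7.22 CPM, and fell by 1.45 (SE 0.410, adjusted p = 0.0195). CXCL3 had 9.25, 7.85, 6.35, 5.12 and 2.99 CPM against 12.2 to 14.9 CPM, and fell by 1.12 (SE 0.246, adjusted p = 0.00555). For both chemokines the groups did not overlap.

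CSF2 had 11.2, 6.18, 9.73, 4.99 and 3.59 CPM with cetuximab and 19.5, 16.2, 14.8, 12.5 and 9.09 CPM with PBS, and its groups overlapped, since library 2a and that of day 3 lay above PBS of day 5. It fell by 1.04 (SE 0.304, adjusted p = 0.0227), but was not called with the flow cell as a covariate (adjusted p = 0.0937), within the flow cell that held both treatments (-0.54, adjusted p = 0.107) or without the cetuximab library of day 4 (adjusted p = 0.0549). CSF1 had 12.02, 7.66, 12.4, 20.3 and 19.7 CPM with cetuximab against 5.34 to 8.30 CPM with PBS, and rose by 1.11 (SE 0.251, adjusted p = 0.00642). IL6 had 1.11, 0.630, 0.468, 0.187 and 0.0861 CPM with cetuximab, on both sides of its 0.309 to 0.697 CPM with PBS. Its log2 difference was -0.27 (95% interval -1.34 to 0.81, adjusted p = 0.751). 

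CSF3 and CXCL1 did not pass the filter on low counts in SCC6. CSF3 had 105 counts over the 6 PBS libraries, a pooled level of 0.561 CPM (95% exact Poisson interval 0.459 to 0.679), and 4 counts over the 5 cetuximab libraries, 0.0157 CPM (0.00427 to 0.0401), all of them in library 2b. Of the PBS counts, 37 and 36 were in the libraries of days 0 and 1, on a flow cell without SCC6 cetuximab libraries. PBS of days 2 to 5 alone had 32 counts, a pooled level of 0.267 CPM (0.183 to 0.378), and 0.147 to 0.312 CPM by library, above the 0.126 CPM of library 2b. The lowest of these PBS libraries, that of day 5, had 4 counts, as library 2b did, so their levels differ only by the scaling to library totals. The ranges of the groups did not overlap for 5 of the 8 members tested, all lower with cetuximab, where this held for 8.33% of all genes tested. The 2 cetuximab libraries of the flow cell without PBS, days 4 and 5, had the lowest levels of IL1A, IL1B, CXCL2 and CXCL3. Within the flow cell that held PBS of days 2 to 5 and cetuximab 2a, 2b and day 3, IL1B (-1.82, adjusted p = 9.64e-05), LIF (-1.30, adjusted p = 7.95e-05), IL1A (-1.09, adjusted p = 0.00341), CXCL2 (-0.98, adjusted p = 0.0143), CXCL3 (-0.82, adjusted p = 0.00169) and CSF1 (0.79, adjusted p = 0.00976) were called.

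**Figure D4:**
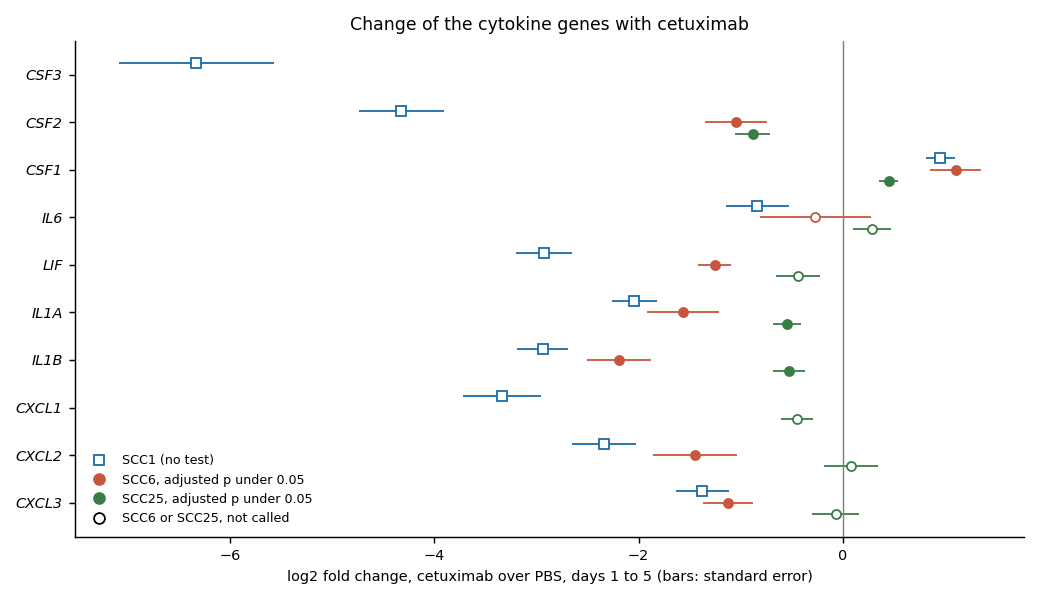
Log2 fold change of each member with cetuximab over PBS, with standard errors; squares are SCC1 (no test), filled circles were called in SCC6 or SCC25, and open circles were tested and not called. CSF1 lies to the right of 0 in all 3 lines, and the members called in SCC25 lie between -0.88 and 0.45.

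In SCC25, CSF2, IL1A and IL1B fell and CSF1 rose, 4 of 9 members tested, where 9.5% of all genes fell and 8.8% rose. CSF2 had 4.80, 5.62, 6.06, 6.27 and 5.54 CPM with cetuximab on days 1 to 5 and 6.47, 11.3, 13.4, 11.98 and 8.77 CPM with PBS. It was the member of SCC25 whose groups did not overlap, and it fell by 0.88 (SE 0.171, adjusted p = 0.00492); 7.88% of all genes were lower without overlap. CSF1 had 50.4, 53.5, 40.7, 58.1 and 56.3 CPM against 34.6 to 42.7 CPM, and rose by 0.45 (SE 0.0949, adjusted p = 0.00744). The library of day 3 lay within the PBS range.

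IL1A had 89.0, 96.4, 145, 124 and 113 CPM with cetuximab against 131, 157, 201, 178 and 158 CPM with PBS, lower on every day, and fell by 0.55 (SE 0.136, adjusted p = 0.0166). IL1B had 30.6, 34.8, 39.6, 49.0 and 38.6 CPM against 36.9, 50.7, 61.1, 67.0 and 60.8 CPM, and fell by 0.53 (SE 0.156, adjusted p = 0.0347). Neither was called when PBS of day 0 was added (adjusted p = 0.0837 and 0.177), and IL1A was not called without PBS of day 3 (adjusted p = 0.0544), while the call of IL1B was lost in 7 of the 10 fits that left out 1 library. CXCL1 (-0.45, adjusted p = 0.0639) and IL6 (0.29, adjusted p = 0.308) were not called, but were with the day as a block (-0.46, adjusted p = 0.0189, and 0.30, adjusted p = 0.0394). CXCL1 was also called by DESeq2 without that block (-0.45, adjusted p = 0.0326), and LIF was called by edgeR without PBS of day 1 (-0.59, adjusted p = 0.0371). With all libraries, LIF (-0.44, adjusted p = 0.174), CXCL2 (0.08, 95% interval -0.43 to 0.60) and CXCL3 (-0.07, -0.52 to 0.38) did not pass the test, and CSF3, with 17 counts over the 11 libraries, was not tested. Within the flow cell that held all PBS and the cetuximab libraries of days 1 and 2, CSF2 (-0.99, adjusted p = 0.031), IL1A (-0.83, adjusted p = 0.0057), IL1B (-0.76, adjusted p = 0.0327) and CSF1 (0.46, adjusted p = 0.00874) were called, and IL6 was at -0.02.

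Relative to day 0, all PBS libraries of days 1 to 5 in SCC1 lay above the level of day 0 for all 10 members, and all cetuximab libraries lay below it for CSF3, CSF2, CXCL1, CXCL2, IL1B and LIF. In SCC6 the PBS libraries of the IL1 genes, CXCL2 and CXCL3 had 0.715 to 1.34 times the level of day 0, and the cetuximab libraries 0.101 to 0.669 times. IL1B in SCC1 had 103 CPM on day 0 and 54.9 to 83.7 CPM with cetuximab, and in SCC6 125 CPM on day 0 and 13.1 to 48.6 CPM with cetuximab. Whether the course over days differed between the lines was not tested.

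**Figure D5:**
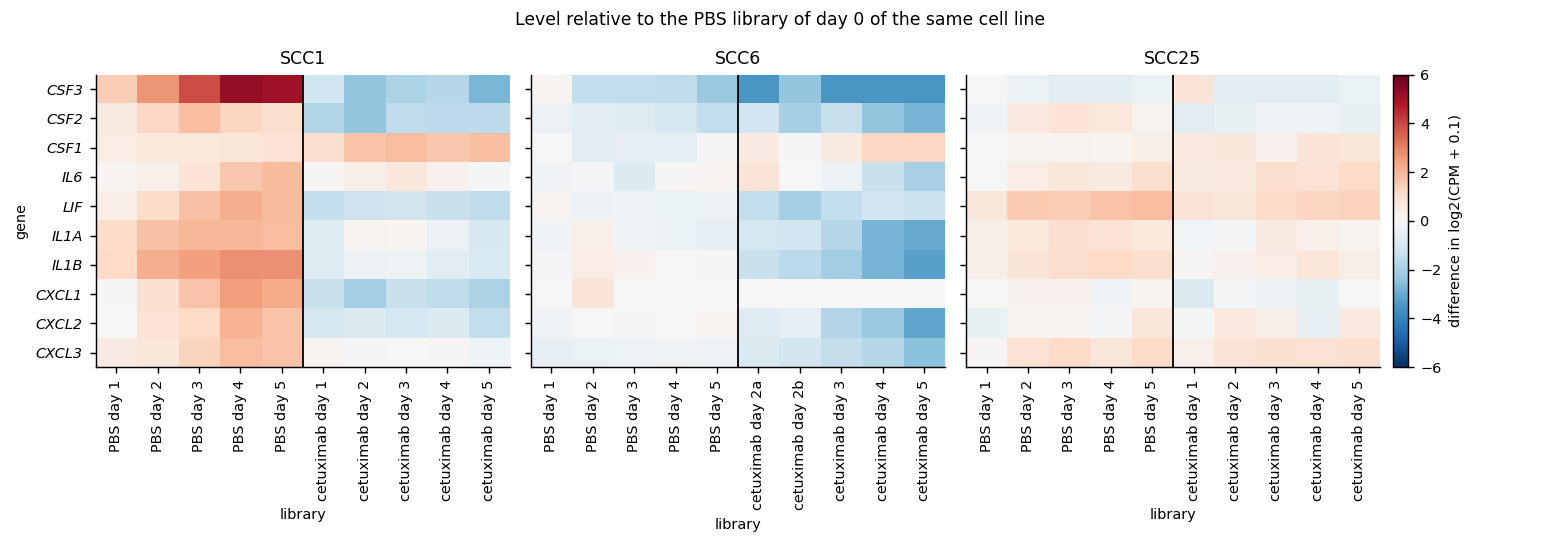
Level of each member in each library of days 1 to 5 relative to the PBS library of day 0 of the same line, as a difference in log2(CPM + 0.1); red is above and blue below day 0, with PBS left and cetuximab right of the black line. SCC1 is red under PBS, and SCC6 is blue under cetuximab except for CSF1, IL6 in libraries 2a and 2b and CXCL1, which is at 0. In SCC25, LIF under PBS reaches 3.9 times its level of day 0.

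The difference between lines was tested for SCC6 against SCC25, as the contrast of SCC1 was used to choose CSF3. The change with cetuximab was more negative in SCC6 for IL1B, by -1.65 on the log2 scale (SE 0.378, adjusted p = 0.0026), for CXCL2, by -1.54 (SE 0.526, adjusted p = 0.0411), and for CXCL3, by -1.04 (SE 0.370, adjusted p = 0.0495). These were 3 of the 10 members, where 17.5% of all genes differed and 7.35% were more negative in SCC6. With the day as a block 5 members were called, adding CSF1 (0.82, adjusted p = 0.00442) and IL1A (-1.36, adjusted p = 0.000423). With the flow cell as a covariate none was, by the edgeR test, and 1 had an unadjusted p under 0.05: IL1B was at -1.06 (adjusted p = 0.074), CXCL2 at -1.12 (adjusted p = 0.271) and CXCL3 at -0.52 (adjusted p = 0.542). DESeq2, without that covariate, called 5. IL1B was called in each of the 20 fits that left out 1 library (adjusted p at most 0.00684), whereas CXCL2 and CXCL3 were each lost in 14 of them. CSF2 (-0.15, 95% interval -0.85 to 0.56) was not called. Line and hydrocortisone, named for SCC25 but not for SCC6, cannot be told apart in this contrast.

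In the gene lists that follow, the shares to set beside the counts are those of all genes tested: in SCC6 14.6% fell and 15.6% rose, and in SCC25 9.5% fell and 8.8% rose. Of the 14 receptors and antagonists of these cytokines 10 were tested in SCC6, where 5 fell, 2 rose and 3 were not called, and 9 in SCC25, where 3 fell, 1 rose and 5 were not called. IL1R2, the decoy receptor of IL-1, went from 12.2 ± 5.6 to 0.413 ± 0.401 CPM (SD, n = 5) in SCC6 (-5.05, SE 0.609, adjusted p = 0.000145). In SCC25 it was scarce and fell by 0.90 (adjusted p = 0.0272), from 0.59 ± 0.107 to 0.314 ± 0.11 CPM. IL1RN, the receptor antagonist, went from 19.6 ± 6.44 to 2.19 ± 1.63 CPM in SCC6 (-3.22, SE 0.488, adjusted p = 0.000611) and fell by 0.83 in SCC25 (adjusted p = 0.000619). The IL-1 ligands and both of these inhibitors thus fell in SCC6 and in SCC25 with all libraries of days 1 to 5. In SCC25 the calls of IL1A and IL1B were lost in some of the other fits given above. IL1R1, the signalling receptor, fell by 0.95 in SCC6 (adjusted p = 0.000542) and rose by 0.52 in SCC25 (adjusted p = 0.0343).

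For the IL-6 family, IL6R fell by 1.73 in SCC6 (adjusted p = 1.87e-05) and by 0.37 in SCC25 (adjusted p = 0.00172), while IL6ST, which encodes gp130, was at -0.31 (adjusted p = 0.188) and -0.11 (adjusted p = 0.358). CSF1R rose in SCC6, from 0.440 ± 0.124 to 2.09 ± 1.33 CPM (2.24, SE 0.443, adjusted p = 0.00309), and had 2.63 ± 0.329 and 3.25 ± 0.487 CPM in SCC25 (0.30, adjusted p = 0.136). CSF2RA fell in SCC6, from 3.48 ± 0.682 to 0.667 ± 0.186 CPM (-2.41, adjusted p = 2.77e-05). CXCR2, the chemokine receptor, had means of at most 0.0739 CPM in these lines. IL1R1, IL6R, IL6ST, CSF1R, CSF2RA and CXCR2 were named as the receptors of the members after their values were seen.

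Of 22 related cytokines, 7 of the 12 tested fell and 2 rose in SCC6, and 4 of the 15 tested fell and none rose in SCC25, beside 14.6% and 15.6% of all genes in SCC6 and 9.5% and 8.8% in SCC25. PPBP (-4.98, SE 0.571, adjusted p = 0.000104) and CCL20 (-3.76, SE 0.517, adjusted p = 0.000324), a chemokine for dendritic cells and lymphocytes, changed most in SCC6. IL11, a further gp130 cytokine, fell by 1.17 (adjusted p = 4.36e-05) and IL37, an IL1 family member that dampens inflammation, by 1.67 (SE 0.350, adjusted p = 0.00728) in SCC25. The 2 that rose in SCC6 were TNF, from 0.634 ± 0.251 to 4.42 ± 1.36 CPM (2.77, adjusted p = 9.65e-05), and CCL5 (1.52, adjusted p = 0.0231), both named after their values were seen.

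Of the 22 NF-κB feedback genes and targets, all tested, 7 fell in SCC6, 1 rose and 14 were not called, with a median log2 difference of -0.02, and in SCC25 2 fell, 3 rose and 17 were not called, with a median of -0.06. Of all genes, 14.6% fell and 15.6% rose in SCC6, and 9.5% fell and 8.8% rose in SCC25. PTGS2, the inducible cyclooxygenase, fell from 1098 ± 301 to 342 ± 127 CPM in SCC6 (-1.70, adjusted p = 0.000875), as did BIRC3, an inhibitor of apoptosis (-1.21, adjusted p = 0.0224). In SCC25 TNFAIP2 (0.92, adjusted p = 0.0287) and SOD2, the mitochondrial superoxide dismutase (0.59, adjusted p = 0.0119), rose. The 18 genes of ERK output and AP-1 had medians of -1.40 in SCC6, where 15 fell and 1 rose, and -1.01 in SCC25, where 14 fell and none rose. The largest of these changes were those of EGR1 in both lines, of DUSP5 in SCC6 (-2.72, adjusted p = 1.28e-05) and of DUSP4 in SCC25 (-1.62, adjusted p = 3.32e-06), both ERK phosphatases. Over all genes tested the median was 0.00394 in SCC6 and 0.00618 in SCC25.

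Among 13 genes of cytokine mRNA decay and maturation, 3 of the 12 tested fell and 2 rose in SCC6, where 14.6% of all genes fell and 15.6% rose, and 5 of 13 fell in SCC25, where 9.5% did. ZFP36L2, which binds AU-rich elements and speeds mRNA decay, fell in SCC6 from 131 ± 2.91 to 53.1 ± 11.8 CPM (-1.32, adjusted p = 4.84e-05), and its relative ZFP36L1 fell in SCC25 by 0.48 (adjusted p = 0.000564). NLRP1, an inflammasome sensor, rose in SCC6 (1.56, adjusted p = 0.000509), and NLRP3 fell in SCC25 (-0.53, adjusted p = 0.00891). Of 10 JAK-STAT genes tested, kinases of the pathway such as JAK1 as well as targets, 1 fell and 2 rose in SCC6, and 2 fell in SCC25, counts near those shares. PIM1, a kinase induced by STAT factors, fell in SCC6 (-0.56, adjusted p = 0.0143) and in SCC25 (-0.71, adjusted p = 0.00139), SOCS2 fell in SCC25 (-0.39, adjusted p = 0.0291), and JAK1 rose in SCC6 (0.44, adjusted p = 0.0108).

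The genes most like 4 of the members were found by Pearson's r of log2(CPM + 0.5), centred in each line, over the 33 libraries among 14600 genes. CSF3 was followed most closely by GSDMA (r = 0.952), MT1M (0.943) and HCLS1 (0.933), and CXCL1 by MT1M (0.959), HCLS1 (0.943) and GSDMA (0.941). The highest for IL1B were CDCP1 (0.947), TGFA, an EGFR ligand (0.942), and ARNTL2 (0.941). IL6 had lower values, with CXCL8 (0.791), MDM2 (0.768) and FOXA1 (0.766). CSF3 had at most 1.12 CPM in SCC6 and 0.17 CPM in SCC25, and CXCL1 was close to absent in SCC6 and had 2.25 to 5.06 CPM in SCC25. The r values of CSF3 and CXCL1 thus rest mainly on the SCC1 libraries, which entered the choice of CSF3. All 33 libraries share treatment, line and day, and the r values carry no test.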

How the data were processed

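Poly(A) RNA was sequenced in 33 libraries. The authors inferred transcript levels with Salmon (0.8.2 in the submitters' processing notes) and deposited estimated counts per gene symbol, which are not normalised between libraries. Values were rounded to whole numbers; 73% lay within 0.01 of one. In R 4.3.3, low counts were removed with filterByExpr, libraries scaled by TMM and genes tested with edgeR 4.0.16 (quasi-likelihood, two-sided, Benjamini-Hochberg over all genes tested, threshold 0.05). Levels are CPM under 1 TMM scaling. Cetuximab was set against PBS for days 1 to 5, SCC6 with SCC25 in a fit of 30 libraries, and PBS levels and slopes over days 0 to 5. The fits were tested on simulated data. The sources do not say that the libraries come from separate cultures of equal standing, so p-values measure the spread between days. No 2 libraries of the same line and treatment agreed within sampling noise (lowest chi-square per gene 5.93), and pairs across groups were not compared.

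Libraries of the same line and day share a day label, and their deviations from the group means correlated across genes by 0.197 to 0.44 in SCC25, by -0.112 to 0.461 in SCC6 and by 0.0914 to 0.294 in SCC1; the day was fitted as a block in an alternative, with 2a and 2b both as day 2. The other alternatives were DESeq2 1.42.0, its size factors, no filter, PBS of day 0 added, days 1 to 5 only, each library left out and the flow cell in the titles as a covariate; single flow cells and all alternatives for SCC1 were added after seeing the data. The members, gene lists and tests were chosen with earlier results of these data known. Named are the members, the 2 largest called changes of each list in SCC6 and SCC25, the 3 genes most alike, and EGR1 and DUSP6; receptors, neighbours of CXCL1, marker genes and a few others outside this rule were named after their values were seen. The NF-κB letters were chosen among 3 forms after their matches were seen. Motif and alignment steps used Python 3.11.15 and Biopython 1.88. Intervals on counts cover counting error only.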

Additional observations from a re-analysis of the deposited data

Results flagged for a closer look

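In 3 groups 1 library stood far from the others, each time at a handful of counts: CSF3 in SCC6 with cetuximab, where library 2b had 0.126 CPM (4 counts) and the other libraries 0; CSF3 in SCC25 with cetuximab, where day 1 had 0.17 CPM (8 counts) and the others at most 0.0215 CPM; and CXCL1 in SCC6 with PBS, where day 2 had 0.0693 CPM (2 counts) and the others 0. Where all other libraries are at 0, a single library with counts always passes this measure, so no rate by chance can be given at such low counts. The change with cetuximab differed between SCC6 and SCC25 for IL1B (-1.65), CXCL2 (-1.54) and CXCL3 (-1.04), and none of these was called with the flow cell as a covariate.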

How the results depend on the processing

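Low counts limited CSF3 and CXCL1 in SCC6 and CSF3 in SCC25, and 1 library per day limited the slopes. Of the members' values recomputed under other settings, 133 of 136 in SCC6 and 139 of 153 in SCC25 kept their call, as did 210 of 250 for the difference between these lines. For the PBS levels 230 of 230 did in SCC6 against SCC1, 230 of 230 in SCC25 against SCC1 and 227 of 230 in SCC6 against SCC25. For the PBS slopes these were 78 of 110 in SCC1, 83 of 96 in SCC6 and 77 of 90 in SCC25. In the PBS levels against SCC1 and in the SCC1 slope, CSF3 had no call. Its values were counted as kept there when they kept their sign and moved by less than the SE.

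With the day as a replicate block, for the paired libraries, 7961 genes were called in SCC6 in place of 5238, and 7207 with 5 members for the difference between SCC6 and SCC25 in place of 3750 and 3; the members it added were CSF1 and IL1A for the difference and CXCL1 and IL6 in SCC25, and it changed no other call of a member. With the flow cell as a covariate, 1417 genes were called in SCC25 in place of 3496 (1899 within one flow cell), 1748 for the difference, with 0 members by edgeR (1 at an unadjusted p under 0.05; DESeq2 was not run with this covariate), 1670 for the slope in SCC1 in place of 474 and 617 for that in SCC6 in place of 5812; LIF in SCC6 then had a slope of 0.0091 in place of -0.11. DESeq2 called 5 members for the difference and 1468 genes for the SCC1 slope. With PBS of day 0 added, 2 members were called in SCC25. On days 1 to 5 alone, 99 genes and 1 member were called for the slope in SCC1, 1892 and 1 in SCC6 and 1090 in SCC25, where 2147 were with day 0. Among the SCC1 PBS libraries day 5 was alone on its flow cell, so the flow cell fit of that slope rests on the other days. The cause of these shifts was not tested.

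Leaving out each library in turn, the count of genes ran from 2193 to 4006 and of members from 2 to 5 in SCC25, and that of members from 1 to 5 for the difference. For the slopes it ran from 24 to 1575 genes and 0 to 8 members in SCC1, from 1892 to 7137 and 1 to 4 in SCC6, and from 1090 to 2279 in SCC25. For SCC6 with cetuximab, 6 to 8 members were called.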
